A study of Mus musculus with 3 samples.

Results

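The members are the 113 protein-coding genes of 21779 whose mouse symbol marks them as histone-modifying enzymes, chromatin remodelers or their close partners. They were taken by a rule on symbols: those beginning with Kdm, Kmt, Setd, Nsd, Smarc, Arid, Hdac, Baz or Ino80, the numbered Chd and Brd genes, Kat2, Kat5, Kat6, Kat7 and Kat8 genes, and Ash1l, Bptf, Ep300 and Crebbp. The members were chosen with earlier results of these data known, so the choice was not blind to the peaks. By prefix the rule also takes in Nsdhl, a cholesterol synthesis enzyme, and the small neighbours Brd3os and Brd8dc, which were kept and counted. The series holds 3 libraries from intestine of C57BL/6 mice aged 6 weeks with the genotype setd2f/f, meaning a floxed Setd2 allele pair. One library was a ChIP with an antibody to H3K36me3, another a ChIP with an antibody to SETD2, and the last was input DNA made without antibody. All share the floxed genotype. The labels name no Cre driver and do not say how many animals were pooled or which cells of the intestine were taken. Each antibody had 1 library, so the values below describe where called peaks lie, and no test between conditions or animals was possible.

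Histone tails are written, read and erased by protein families that carry recognisable domains. Methyltransferases with a SET domain place methyl groups on lysines, demethylases of the Kdm families remove them, acetyltransferases and deacetylases do the same for acetyl groups, and bromodomain proteins bind acetylated tails. Remodelers of the SWI/SNF, CHD, ISWI and INO80 classes use ATP to slide, evict or exchange nucleosomes. SETD2 places the trimethyl mark on lysine 36 of histone H3 behind elongating RNA polymerase II, so H3K36me3 is known as a mark of the bodies of transcribed genes and is low at promoters. The question here is which genes of the chromatin machinery, Setd2 among them, themselves carry peaks of the mark or of the enzyme.

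Start regions of 3 members are shown first, because H3K36me3 is known as a mark of gene bodies and the peaks described below could be set against the starts. Setd2 encodes the enzyme itself and held 2 H3K36me3 peaks, Brd1 held the highest-scoring peak of all members, and Arid3b held the peak closest to a gene start. Each sequence is the 250 bases before an annotated transcript start (RefSeq, GRCm38.p6), given 5′ to 3′ on the gene's strand, with CG dinucleotides in capitals. They lie at chr9:110532347-110532596 (plus strand), chr15:88734220-88734469 (minus strand) and chr9:57836780-57837029 (minus strand).

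Setd2: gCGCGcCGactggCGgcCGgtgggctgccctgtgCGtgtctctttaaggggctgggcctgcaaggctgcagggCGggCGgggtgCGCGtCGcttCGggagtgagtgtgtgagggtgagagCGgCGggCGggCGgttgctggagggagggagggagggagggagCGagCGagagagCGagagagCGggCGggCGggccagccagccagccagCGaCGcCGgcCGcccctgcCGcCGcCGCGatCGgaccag

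Brd1: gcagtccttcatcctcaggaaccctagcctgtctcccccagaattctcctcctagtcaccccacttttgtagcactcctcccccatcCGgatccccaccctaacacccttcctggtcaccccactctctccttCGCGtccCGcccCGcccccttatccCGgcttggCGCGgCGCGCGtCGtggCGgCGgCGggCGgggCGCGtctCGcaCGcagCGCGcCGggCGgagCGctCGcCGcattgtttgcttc

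Arid3b: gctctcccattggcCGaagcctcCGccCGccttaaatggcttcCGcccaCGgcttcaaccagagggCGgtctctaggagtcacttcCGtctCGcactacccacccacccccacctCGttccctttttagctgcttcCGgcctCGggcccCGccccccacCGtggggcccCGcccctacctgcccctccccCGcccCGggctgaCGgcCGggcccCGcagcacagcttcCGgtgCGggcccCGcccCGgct

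All 3 windows were rich in CG dinucleotides, with 31 in Setd2, 27 in Brd1 and 23 in Arid3b, and a G+C content of 76.0%, 68.4% and 72.8%. RefSeq start sequences were at hand for 83 of the 113 members. Across those 83 genes the median was 20 CG dinucleotides and 61.6% G+C. Across 17492 protein-coding genes with such a sequence it was 10 and 55.2%. The letters CG read the same on both strands. At least 10 CG dinucleotides were counted for 68 of the 83 members (81.9%) and for 50.4% of the 17492 genes, in windows of the same length. At least 1 was counted for 96.4% of these members and for 92.6% of these genes. Among the 10 members with both an H3K36me3 peak and a sequence the median was 22 CG dinucleotides, with a range of 0 to 31. The 0 belonged to Setd5, whose listed start lies 27.7 kb inside its span. The 73 sequenced members without a peak had a median of 18 and a range of 0 to 56. At least 10 were counted for 8 of the 10 (80%) and for 60 of the 73 (82.2%), so the 2 measures differ in direction. All 786 sequenced genes with an H3K36me3 peak had a median of 16.

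No peak of either ChIP reached any of the members' 111 listed start windows, here taken with 50 bases after the start. Among all 17492 genes with a window, 25 had one touched by an H3K36me3 peak and 1 by a SETD2 peak. Even of the 786 sequenced genes with an H3K36me3 peak anywhere in the span, only 23 had a window touched by one. With hits this rare, a count of 0 does not set the 83 members apart.

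H3K36me3 peaks touched 11 of the 113 chromatin genes by at least 1 bp (9.73%, 95% exact binomial interval 4.96 to 16.75). Of all protein-coding genes 4.51% were touched. The members are long genes, with a median span of 50.9 kb against 17.2 kb for all protein-coding genes, and a longer span is met by a peak more often. When every member was given the share of genes touched in its own length class, out of 20 classes of equal gene number, the lengths alone gave 8.53 genes (7.55%). The observed count was 1.29 times that number, and 7.55% lay within the interval of the observed share. The background of 4.51% lay just below that interval. It lay inside the members' interval when 5 kb was added at either side of every gene (5.39%), when only peaks reaching the median score were kept (2.41%, members 5.31%, 1.97 to 11.2) and without regions of many pseudogenes (4.91%, members 9.35%, 4.57 to 16.5). The intervals take genes as independent and cover counting error only.

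Per megabase the picture was the same. The 12 H3K36me3 peaks of the 11 genes lay in 8.77 Mb of member span, or 1.37 peaks per Mb (95% exact Poisson interval 0.707 to 2.39). All protein-coding spans together held 1034 peaks in 1031 Mb, or 1.003 per Mb, a value inside that interval. The ratio of the densities was 1.36.

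No member up to 25 kb long was touched, 0 of 28, which allows a share of up to 10.7% (3 counts of 28); of all genes of that length 1.51% were touched. Between 25 and 50 kb 2 of 28 members were touched (7.14%), beside 5.98% of all genes. The band of 50 to 100 kb held 6 of the 11 touched members, out of 30 (20%, exact interval 7.71 to 38.6), where 8.69% of all genes were touched. Among 20 members of 100 to 200 kb 2 were touched (10%, all genes 10.6%), and among 7 longer ones 1 (14.3%, all genes 19.6%). In the plot of touched shares by gene length, the background share of every band lies inside the members' interval. Touched members had a median span of 77.3 kb (46.5 to 226 kb) and untouched ones of 45.7 kb (1.79 to 870 kb), so the groups overlapped widely.

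**Figure D1:**
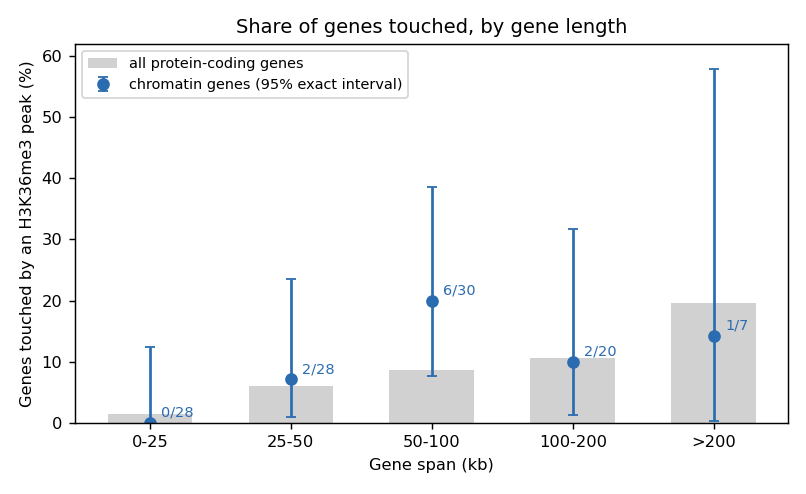
Share of genes touched by an H3K36me3 peak (vertical axis, %) in 5 bands of gene span (horizontal axis, kb). Grey bars are all protein-coding genes, blue points the chromatin genes with 95% exact intervals and the counts beside them; the members' highest share, 20%, is at 50 to 100 kb, and every grey bar ends within the blue interval.

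Among the methyltransferases of H3K36, 2 of 5 genes held an H3K36me3 peak where their lengths give 0.521. Setd2 (chromosome 9, 110532500 to 110618633) carried both of its peaks in the part of the gene nearer the start. The higher, at 110548013 to 110548721 with a score of 34.97, stood 15.9 kb from the start and ranked 707th of 1806. The lower, at 110568281 to 110569026, scored 32.7 and stood 36.2 kb from the start, 19.6 kb beyond the first. No other member held more than 1 peak. The caller's score is the authors' own value for each peak; its scale is not stated, and it serves here only to rank peaks within a list.

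Nsd2, which encodes a dimethyltransferase of H3K36, held 1 peak (chromosome 5, 33892625 to 33893221, score 32.2) that lay 5.04 kb from the gene end with the higher coordinate. Nsd1, its paralog, held none, but a peak with a score of 41.9 lay 6.61 kb before its lower coordinate (chromosome 13, 55202567 to 55203176) and touched no annotated gene. For Nsd3, a further paralog, the nearest H3K36me3 peak was 330 kb away, and for Ash1l, another H3K36 methyltransferase, 607 kb. Nsd1 (109 kb), Nsd3 (118 kb) and Ash1l (129 kb) are all longer than Nsd2 (77.3 kb) and Setd2 (86.1 kb).

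The other lysine methyltransferases and SET domain genes gave 2 of 17 with an H3K36me3 peak, where lengths give 1.05. Kmt2a, the mixed lineage leukemia gene that encodes an H3K4 methyltransferase, held a peak near its middle (chromosome 9, 44838254 to 44838894, score 34.4, 42.8 kb from the start of a 78.0 kb gene). Setd5, which encodes a SET domain protein, held one at 113115590 to 113116182 on chromosome 6 (score 32.5), 38.6 kb into its 76.2 kb span and 10.95 kb from an internal listed start. Kmt2b, Kmt2c, Kmt2d and Kmt2e, paralogs or relatives of Kmt2a, had no H3K36me3 peak. The remaining 11 untouched genes were Kmt5a, Kmt5b and Kmt5c, which encode H4K20 methyltransferases, Setd1a, Setd1b, Setd3, Setd4, Setd6, Setd7 and the H3K9 methyltransferase genes Setdb1 and Setdb2. Of these, Kmt5a (27.2 kb away) and Setdb1 (35.2 kb) had the nearest peaks.

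Kmt2c, an H3K4 methyltransferase gene active at enhancers, was the single member with a SETD2 peak, 1 of 113 (0.885%, exact interval 0.0224 to 4.83). Of all protein-coding genes 0.294% held one, and the members' lengths give 0.621 genes, so the count of 1 is near the number from lengths. The peak (chromosome 5, 25346994 to 25347545) scored 30.17, rank 180 of 186 and close to the list's lowest score of 30.01. It lay 152 kb from the start of the 227 kb gene and 89.6 kb from the nearest H3K36me3 peak, which stands 14.4 kb outside Kmt2c and touches Galnt11. No member held both kinds of peak, and 13 of all 21779 protein-coding genes did. With so few such genes, a count of 0 does not set the 113 members apart. Around Setd2 the nearest SETD2 peak was 1260 kb away. For the 112 members without one the median distance was 5666 kb, and the closest was Baz1b at 20.9 kb. No such distance is given for all genes.

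Of 9 acetyltransferase genes 1 held an H3K36me3 peak, where lengths give 0.606. Ep300, which encodes the coactivator p300, carried it 26.2 kb into a 65.9 kb gene (chromosome 15, 81612192 to 81612642) with a score of 37.8, the 391st rank. Its paralog Crebbp (133 kb) had none, and the nearest peak was 91.5 kb away. Kat2a, Kat2b, Kat5, Kat6a, Kat6b, Kat7 and Kat8 were untouched, with the nearest peaks at 118 kb (Kat5) to 2176 kb (Kat2b).

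The genes of enzymes that remove marks held no peak of either ChIP. None of the 18 demethylase genes, from Kdm1a to Kdm8, was touched by an H3K36me3 peak where lengths give 1.38, and 3 counts of 18 would still allow 16.7%. They include Kdm2a, Kdm2b and Kdm4a to Kdm4c, whose products act on methylated H3K36. Kdm3a came nearest, with a peak 21.6 kb away, followed by Kdm5c at 34.3 kb. Kdm5d on chromosome Y was farthest, at 89876 kb, on a chromosome with 2 H3K36me3 peaks. None of the 11 deacetylase genes was touched where lengths give 0.903, which allows up to 27.3%. The closest peak was 35.6 kb from Hdac10. Put together, a grouping made after the counts were seen, the 29 genes gave 0 where lengths give 2.28, which allows 10.3%. For comparison, the 31 genes of methyltransferases, SET domain proteins and acetyltransferases gave 5 where lengths give 2.18. The difference between these groups was not tested.

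Among the 13 Smarc genes 1 held an H3K36me3 peak, where lengths give 0.889. Smarcc1 encodes BAF155, a core scaffold of SWI/SNF complexes. Its peak (chromosome 9, 110230992 to 110231543) scored 40.9, rank 233, and lay 99.2 kb into a 108 kb gene. Its paralog Smarcc2 (31.4 kb) had none. The ATPase genes Smarca2 and Smarca4 were untouched; a peak lay 24.4 kb from Smarca4. Smarca1, Smarca5, Smarcad1, Smarcal1, Smarcb1, Smarcd1, Smarcd2, Smarcd3 and Smarce1 made up the rest.

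ARID genes, named for a DNA-binding domain, gave 2 of 10 where lengths give 0.969. Arid4b, a subunit of the SIN3 deacetylase complex, carried a peak with a score of 34.0 (chromosome 13, 14091323 to 14091820), 28.0 kb into 136 kb. Arid3b, a DNA-binding transcription factor, carried one with a score of 31.3 (chromosome 9, 57833342 to 57833898), 3.23 kb from the start of a 46.5 kb gene. The SWI/SNF subunit genes Arid1a, Arid1b and Arid2 were untouched, as were Arid3a, Arid3c, Arid4a, Arid5a and Arid5b. Arid4a, the paralog of Arid4b, had a peak 31.2 kb outside its span.

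CHD remodelers gave 2 of 10, where lengths give 0.922. The touched genes, Chd8 and Chd9, are close relatives within the subfamily of Chd6 to Chd9. Chd8 is known as a regulator of Wnt target genes. Its peak (chromosome 14, 52236497 to 52237194) scored 30.9 and lay 21.2 kb into 59.9 kb. That of Chd9 (chromosome 8, 91018117 to 91018743) scored 30.3 and lay 190 kb into 226 kb. These were the lowest scores of the 12 member peaks, ranks 1523 and 1687. Chd6 (162 kb) and Chd7 (178 kb), both longer than Chd8, were untouched, as were Chd1, Chd1l, Chd2 and the NuRD-type genes Chd3, Chd4 and Chd5.

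The 9 Brd genes gave 1, where lengths give 0.450. Brd1, a scaffold of MOZ-type and HBO1 acetyltransferase complexes, held the highest-scoring member peak (chromosome 15, 88695140 to 88695519, score 49.2, rank 53). It was also the narrowest of the 12, at 380 bp, and lay 38.9 kb into a 47.2 kb gene. No other Brd gene held one, among them Brd2 and Brd3, which encode BET readers of acetylated histones, and Brd7, Brd8 and Brd9. Nsdhl, the gene taken in by prefix, was untouched. A peak 5.78 kb upstream of Brd9 (score 34.2) touched its neighbour Trip13. None of the 5 ISWI-partner genes (Baz1a, Baz1b, Baz2a, Baz2b and Bptf) and none of the 5 Ino80 genes was touched, where lengths give 0.537 and 0.239. Baz2a had a peak 9.61 kb upstream (score 35.4) that touched no annotated gene.

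**Figure D2:**
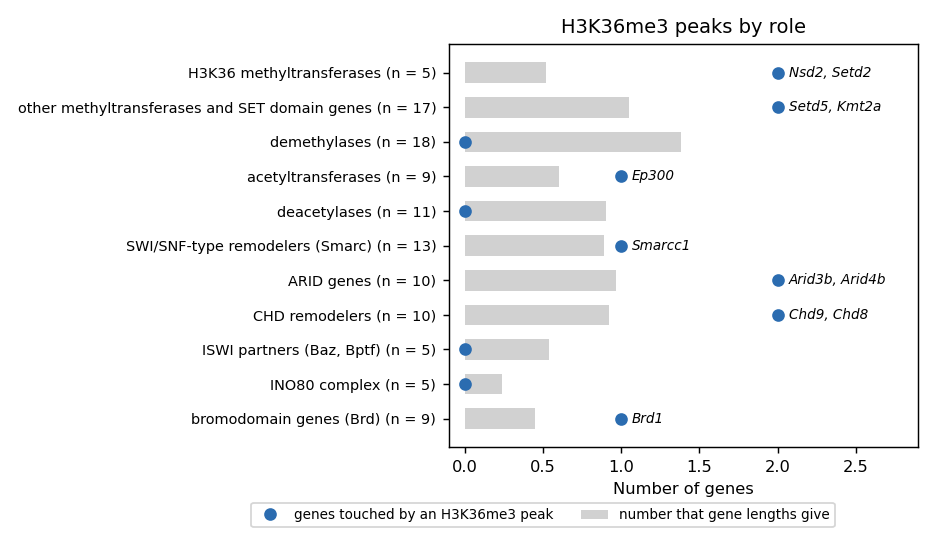
Number of genes touched by an H3K36me3 peak in each of 11 role groups (blue points, with the genes named) beside the number that gene lengths give (grey bars); the horizontal axis counts genes. Touched genes are spread over 7 groups with at most 2 each, and demethylases, deacetylases, ISWI partners and the INO80 complex stand at 0.

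Among paralogs the touched gene was not always the longest. Smarcc1, Arid4b and Arid3b are the longest of their families, while Ep300 is shorter than Crebbp and Nsd2 is the shortest of Nsd1 to Nsd3. Of Chd6 to Chd9 the longest, Chd9, and the shortest, Chd8, were touched. Among Kmt2a to Kmt2e, Kmt2a (78.0 kb) held the H3K36me3 peak and the longer Kmt2c the SETD2 peak. These families were picked after the peaks were seen.

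Along the genes the member peaks showed no common place. With the start of each gene as 0% and its end as 100%, the 11 peaks in genes of known strand had a median position of 42.0%, beside 48.1% for 827 such gene and peak pairs of all protein-coding genes. In 4 equal parts from start to end they numbered 3, 3, 2 and 3, where all genes gave 213, 210, 184 and 220. The median distance to the nearer gene end was 23.7 kb for the 12 member peaks and 13.3 kb for all. Within 5 kb of a gene end lay 1 of the 12 (8.33%), the peak of Arid3b, and 25.9% of all pairs. Members are longer than most genes, and this comparison was not adjusted for length. None of the 12 peaks touched a further annotated gene, and 76 of the 1034 genic peaks did (7.35%). With only 12 peaks, a count of 0 does not set the members apart from that share.

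**Figure D3:**
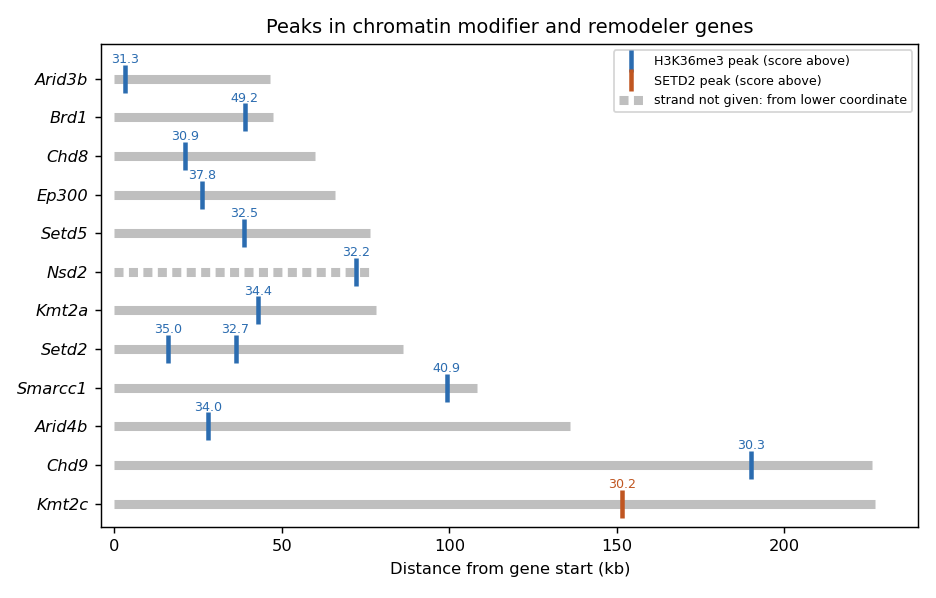
Position of each peak in the 12 members with a peak (horizontal axis, kb from the gene start; grey bars are gene spans, blue marks H3K36me3 peaks, the orange mark the SETD2 peak of Kmt2c, numbers the authors' scores). The strand of Nsd2 was not at hand, so it is drawn from its lower coordinate. Peaks range from 3.23 kb after the start in Arid3b to 190 kb in Chd9.

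In score and width the member peaks resembled the list they came from. Their scores ran from 30.3 to 49.2 with a median of 33.4, where the median of all 1806 peaks was 33.6. In 6 of the 12 the score was at or above that median, and 9 of the 12 scored below 35, as did 1100 of the 1806. The members' widths ran from 380 to 746 bp with a median of 595 bp, beside 602 bp for the whole list. Scores of 1459 peaks were shared exactly with another peak, so ranks are coarse; Brd1 shared its score with 5 other peaks. Read numbers were not at hand for any peak, so the depth is unknown.

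**Figure D4:**
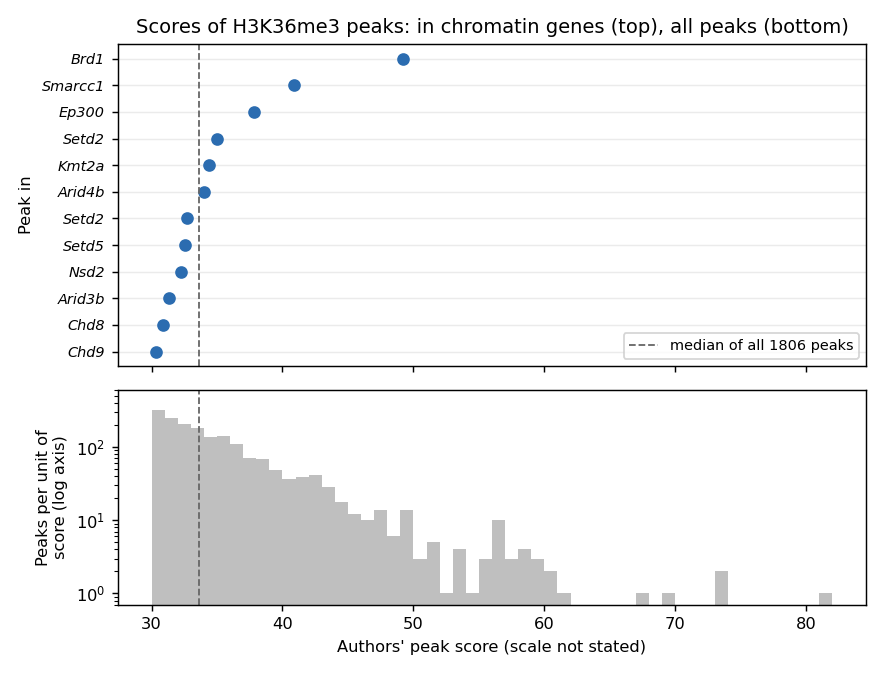
Authors' score (horizontal axis, scale not stated) of the 12 H3K36me3 peaks in chromatin genes, 1 row per peak (top; Setd2 has 2), above the histogram of all 1806 H3K36me3 scores (bottom, log vertical axis). The dashed line is the median of all peaks, 33.6; 6 member peaks lie on either side of it, and Brd1 at 49.2 is the highest.

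The 102 members without an H3K36me3 peak lay a median of 335 kb from the nearest one (5.78 to 89876 kb), 3 of them within 10 kb (Brd9, Nsd1 and Baz2a) and 19 within 100 kb. No such distances are given for all genes, so they do not place the members nearer to or farther from peaks. The 5 longest of them were Hdac9 (870 kb), Arid1b (353 kb), Baz2b (311 kb), Hdac4 (267 kb) and Kmt2c (227 kb). All fall in the longest of the 20 length classes, where 19.5% of genes held a peak. A peak lay 77.3 kb from Hdac9, 157 kb from Hdac4, 327 kb from Arid1b and 2576 kb from Baz2b. In the 500 kb on either side of the span, touched members had a median of 1 further peak (0 to 3) and untouched members also of 1 (0 to 4), as did all protein-coding genes (0 to 8). At least 1 peak lay there for 72.7% of touched members, 65.7% of untouched members and 58.9% of all protein-coding genes. A narrow-peak list can miss a mark spread thinly over a gene, so absence of a peak is not absence of the mark.

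**Figure D5:**
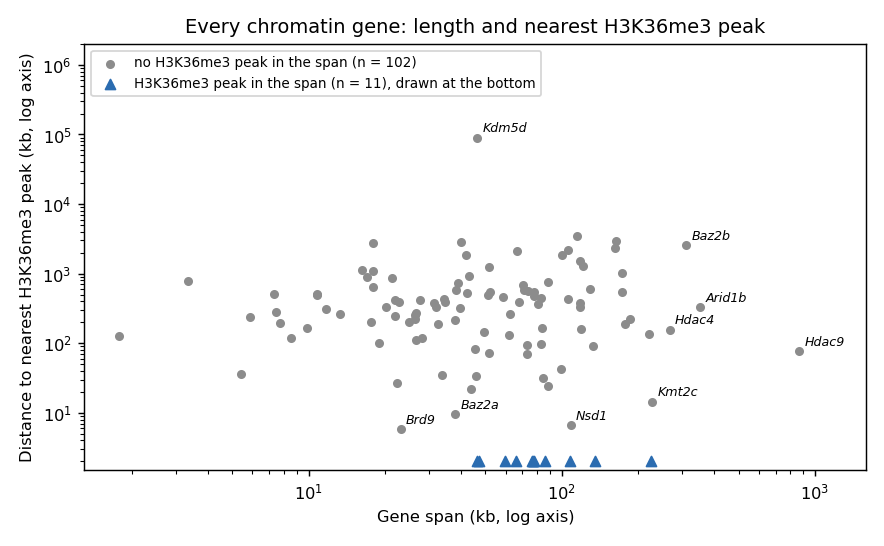
Gene span (horizontal axis, kb, log) and distance to the nearest H3K36me3 peak (vertical axis, kb, log) of all 113 chromatin genes. Grey points are the 102 genes without a peak, with the nearest, the longest and Kdm5d named; blue triangles at the bottom are the 11 genes with one, all longer than 46 kb.

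Before length was taken into account, chromatin genes outside the symbol rule gave a share close to that of the members. Of 204 such genes in 9 lists, chosen with earlier results of these data known, 19 held an H3K36me3 peak (9.31%, exact interval 5.70 to 14.2). The 204 genes are shorter than the members, with a median span of 30.8 kb against 50.9 kb. Their lengths give 11.8 touched genes, a ratio of 1.60, beside 1.29 for the members. Readers of H3K36 methylation and related factors gave 3 of 18 (0.910 by length): Zmynd8 (score 59.9, rank 9), Psip1 (33.5) and Pwwp2b (32.2), all encoding PWWP domain proteins. Further remodeler and deacetylase complex subunits gave 6 of 41 (2.59 by length). Among them were Rcor1 of the CoREST complex, with 2 peaks (41.3 and 32.6), the SWI/SNF subunit gene Ss18 (41.2), the NuRD subunit gene Gatad2b (35.98), the corepressor gene Ncor1 (33.03), and Trrap (31.2), a scaffold of acetyltransferase complexes.

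Subunits of acetyltransferase complexes and other bromodomain genes gave 6 of 43 (2.80 by length). They were the SAGA gene Supt3 (41.0), the neighbouring nuclear body genes Sp140 (39.5 and 32.1) and Sp100 (32.9), Ing3 (31.0), Jade2 (30.7) and Jade1 (30.2). Sp100 and Sp140 belong to a family of near copies, to which reads may not be assignable. Polycomb genes gave 2 of 34 (1.86 by length), Suz12 (46.9) of the H3K27 methyltransferase complex and Phc3 (32.7). Histone chaperones gave 1 of 13 (0.461 by length), Hjurp (58.3), and further methyltransferases 1 of 23 (1.67 by length), Mecom (36.6). The Hjurp peak, at 9557 bp, was the widest of the whole list, where the median width was 602 bp. COMPASS subunits (0 of 10, 0.436 by length), DNA methylation genes (0 of 15, 0.930 by length) and sirtuins (0 of 7, 0.178 by length) held none. SETD2 peaks touched 4 of the 204, where lengths give 0.787: Hira (54.3), a histone chaperone, Phc3 (36.1), Meaf6 (34.2) and Jade3 (32.0). Meaf6 and Jade3 scored below the SETD2 list's median of 35.5. The difference from the number that lengths give was not tested. Of all SETD2 peaks, 33.3% touched a protein-coding gene, a share between those after shifts of 1000 kb up (39.8%) and down (32.8%).

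As a check of the tissue label, 1 of 17 marker genes of intestinal epithelium held an H3K36me3 peak, the brush border gene Sis (score 56.1), where lengths give 0.581. Of 6 markers of immune cells, muscle, vessels and fibroblasts 0 did (0.253 by length). Peak calls give no expression level, so they do not tell which cells the chromatin came from.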

How the data were processed

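ChIP-seq peaks for H3K36me3 (1806 peaks) and SETD2 (186) were used as the authors deposited them, 1 list per antibody. File and peak names show that each was called against the input library with a caller whose peak names begin with MACS. Per the submitters' processing notes, CASAVA 1.8 was used and the build is hg19. The sources used here name no aligner and no caller version. Each peak carries a score, deposited by the authors with no stated scale. The lists name chromosomes of mouse (1 to 19, X and Y), and coordinates were read as GRCm38, counted from 1. Of the H3K36me3 peaks 57.3% touched a protein-coding gene, and 43.2% and 42.5% did after a shift of 1000 kb up or down. For SETD2 peaks it was 33.3% unmoved, 39.8% and 32.8% moved. The unmoved share of the SETD2 list lay between the moved ones, so that list gives no check of the build.

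Gene spans came from the RefSeq table of GRCm38.p6. Genes starting below 3 Mb on chromosomes other than Y lie on patch scaffolds (340 removed). A gene counted as touched at 1 bp of overlap. Length expectations are sums of the touched shares of 20 length classes, with no random draws. Exact intervals are Clopper-Pearson at 95%. A count of 0 in a role group or length band was given 3 counts as its limit. The exact upper limits are higher: 12.3% for members up to 25 kb, 18.5% for demethylases and 28.5% for deacetylases. Strand came from the start sequences. The code was tested on simulated peaks. The members and lists were chosen with earlier results of these data known. Named are all touched members, Setd2, Nsd1, Nsd2, Nsd3 and Ash1l, members with a peak within 10 kb, the 5 longest untouched members and touched genes of the other chromatin lists; some items are not reported here. Alternatives were a stricter score, other overlap rules, wider spans, merged peaks, autosomes alone, regions of many pseudogenes left out and other numbers of length classes. Tools were Python 3.11.15, pandas 2.3.3 and SciPy 1.17.1.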

Additional observations from a re-analysis of the deposited data

How the results depend on the processing

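When only peaks reaching the median score were kept, 6 chromatin genes held an H3K36me3 peak, 0 held a SETD2 peak, and 10 other chromatin genes held an H3K36me3 peak. Fewer peaks enter under that setting. Arid3b, Chd8, Chd9, Nsd2 and Setd5 then dropped out, and the ratio to the number that lengths give was 1.40. Peak midpoints, at least 50% of the peak in the span, 5 kb added at either side, merged peaks and autosomes alone each kept the 11 genes. Without regions of 10 or more pseudogenes within 500 kb 10 were left, Chd8 being lost. Of the other chromatin genes, 18 in place of 19 held a peak by midpoint or with 50% of the peak in the span. The midpoint of the Jade1 peak lay 61.304 kb after the gene start, past the end of its 61.131 kb span. Over all alternatives the ratio ran from 1.16 to 1.40, and the ratio of peak densities from 1.26 to 1.42. No paired analysis was possible because each antibody had 1 library, and no replicate could be left out. Read depth behind the peaks is unknown, so a peak missed for lack of reads cannot be told from a gene without the mark.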

Other observations

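Chromosome 9 held 4 of the 11 chromatin genes with an H3K36me3 peak, a count picked out after it was seen. Kmt2a, Arid3b, Smarcc1 and Setd2 were 4 of the 6 members on that chromosome, where their lengths give 0.560. Kdm4d and Smarca4 were the members left without a peak. Of all 1201 protein-coding genes on chromosome 9, 3.91% were touched, and their spans held 0.954 peaks per Mb. Smarcc1 and Setd2 are near neighbours: the peak of Smarcc1 lay 316 kb from the nearest of the peaks of Setd2. No member among the 8 on chromosome 4 (0.589 by length), the 8 on chromosome 11 (0.367 by length) or the 6 on X (0.564 by length) was touched. The 1 member on Y (0.0799 by length) was also untouched, as were all 256 protein-coding genes there. These chromosomes are examples only. Members on several others were untouched too, such as the 5 on chromosome 2 (0.487 by length) and the 6 on chromosome 17 (0.606 by length). Genes on chromosome 11 had the highest density of peaks among the chromosomes, 1.503 per Mb.

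The only chromatin gene that held both kinds of peak was Phc3, a polycomb gene outside the symbol rule. Its H3K36me3 peak lay 0.417 kb after the gene start and its SETD2 peak 28.5 kb after it.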
